A study of Rattus norvegicus with 10 samples.

Results

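The 9 genes described here act where a cell detects nucleic acid in its cytosol: Sting1, Tbk1, Ikbke and Irf3 of the STING axis, Ifih1 and Mavs of cytosolic RNA sensing, and Trex1, Samhd1 and Endog, which cut nucleic acid or limit its building blocks. They were chosen by name and found by gene symbol, and all 9 were among the 18025 genes with deposited values. Hearts of wild-type Sprague-Dawley rat fetuses at embryonic day 19.5 were compared between a control group (CON, 5 libraries) and a hyperglycemia group (HG, 5 libraries). The sample labels name hearts, whereas a figure legend of the study names isolated fetal cardiomyocytes for its comparison of these groups. All dams were 3 months old. HG dams received streptozotocin in citric acid buffer by intraperitoneal injection on 3 consecutive days, and CON dams received the buffer alone. The methods describe mating before the injections, and the study's text elsewhere places the induction before pregnancy, so that the timing is not settled here. Streptozotocin destroys pancreatic beta cells and so lowers insulin. Diabetes of the HG dams was checked as a non-fasting glucose above 16 mM 7 days after the injections, and the males were normoglycemic. Fetal sex is not given for these libraries, and no source used here says whether the libraries of a group came from different litters, so that p-values measure the spread between these libraries.

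The DNA and RNA branches of this pathway meet at the same kinases. cGAS, encoded by Cgas, binds DNA in the cytosol, mitochondrial DNA included, and makes a cyclic dinucleotide that binds STING on the endoplasmic reticulum. MDA5, encoded by Ifih1, and RIG-I bind double-stranded RNA and act through MAVS on the mitochondrial outer membrane. Both routes lead to TBK1 and its relative IKK-epsilon (Ikbke), which phosphorylate IRF3, and IRF3 then switches on type I interferon and its target genes. TREX1 degrades DNA in the cytosol, SAMHD1 breaks down deoxynucleotides, and endonuclease G (Endog) is a mitochondrial nuclease. The study asks whether mitochondrial DNA released in the hearts of HG offspring engages STING, TBK1 and IRF3, which it followed mainly by phosphorylation. It also measured Tbk1 and Irf3 mRNA by quantitative PCR and total protein, and reported no change in these. The values here are transcript levels and hold no information on phosphorylation.

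Transcription of interferon targets runs in part through the interferon-stimulated response element, the core of which was searched as GAAANNGAAA on both strands. The RefSeq promoters (250 bases before to 50 after each start, build GRCr8) were given for 8 of the 9 genes and not for Ikbke. Of these 8, 1 held the motif, Ifih1, compared with 447 of 14384 promoters of listed genes (3.11%) and with 6 of the 8 genes of the interferon target list that had a promoter (Ifit3, Cxcl10, Ifi44, Rsad2, Ifi27 and Bst2). The stretch from 160 to 41 bases before the start is shown for Ifih1 and for Bst2, the interferon target with the lowest fold change among those listed, with the motif in capitals. The Bst2 stretch holds 2 overlapping matches.
Ifih1, chr3:67684009-67684128, minus strand: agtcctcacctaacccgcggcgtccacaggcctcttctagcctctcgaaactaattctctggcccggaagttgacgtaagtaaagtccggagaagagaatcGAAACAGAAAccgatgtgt
Bst2, chr16:18255008-18255127, minus strand: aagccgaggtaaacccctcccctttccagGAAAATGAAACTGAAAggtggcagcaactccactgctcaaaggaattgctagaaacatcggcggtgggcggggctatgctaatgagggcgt
A match is a description of these letters and does not show a bound site.

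Values are FPKM, reads divided by gene length and by the reads of the library, which allow levels to be compared between genes. The CON libraries held 17639895 to 18240006 gene reads and the HG libraries 16672876 to 19109844, as recovered from the steps between FPKM values. In the CON group the mean levels of the 9 genes spanned from 0.48 FPKM for Ifih1 to 30.4 FPKM for Endog. Endog and Irf3 (29.8 FPKM) were the most abundant and their CON ranges overlapped, so that their order cannot be given. Mavs (12.8 FPKM), Tbk1 (9.38), Trex1 (6.44), Samhd1 (2.52), Sting1 (1.53), Ikbke (0.971) and Ifih1 followed, and no neighbours among these overlapped in their CON ranges. In HG the ranges of Irf3 and Endog lay apart, with Irf3 first, while those of Mavs and Tbk1 overlapped, as did those of Sting1 and Ikbke. Irf3 lay at the 84.4th percentile of mean FPKM among the genes tested, Tbk1 at the 56.2nd, Sting1 at the 25.5th and Ifih1 at the 13.3rd. The defining transcripts of cardiomyocytes were abundant in all libraries, with a summed level of 8 markers of at least 20586 FPKM.

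Groups were compared with limma on log2(FPKM + 0.1), on which scale the change of low genes is understated, over the 14542 genes that reached 0.1 FPKM on average. All 9 genes passed this filter. With a Benjamini-Hochberg adjusted p under 0.05, 6 of the 9 genes were called, where 40.1% of all genes tested were called. In HG hearts 4 of the 9 rose (Sting1, Ikbke, Irf3 and Samhd1; background 28.4%) and 2 fell (Mavs and Endog; background 11.8%), and Tbk1, Ifih1 and Trex1 did not pass the test. None of the 9 reached the DEG threshold of the study, an absolute log2 fold change above 1, which 1.94% of genes passed. The study applied this threshold to DESeq results, and here it was applied to limma on log2(FPKM + 0.1). CON and HG ranges did not overlap for 1 of the 9, Mavs, compared with 27.4% of the genes tested. The median log2 fold change was 0.21 over the 9 genes and 0.09 over all genes tested. Median-of-ratios factors, which centre the typical gene by construction, brought the latter to 0.01. With these factors 33.2% of all genes and 3 of the 9 genes were called, namely Ikbke, Mavs and Endog, and the share of called genes that were higher in HG moved from 70.7% to 47.1%.

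**Figure D1:**
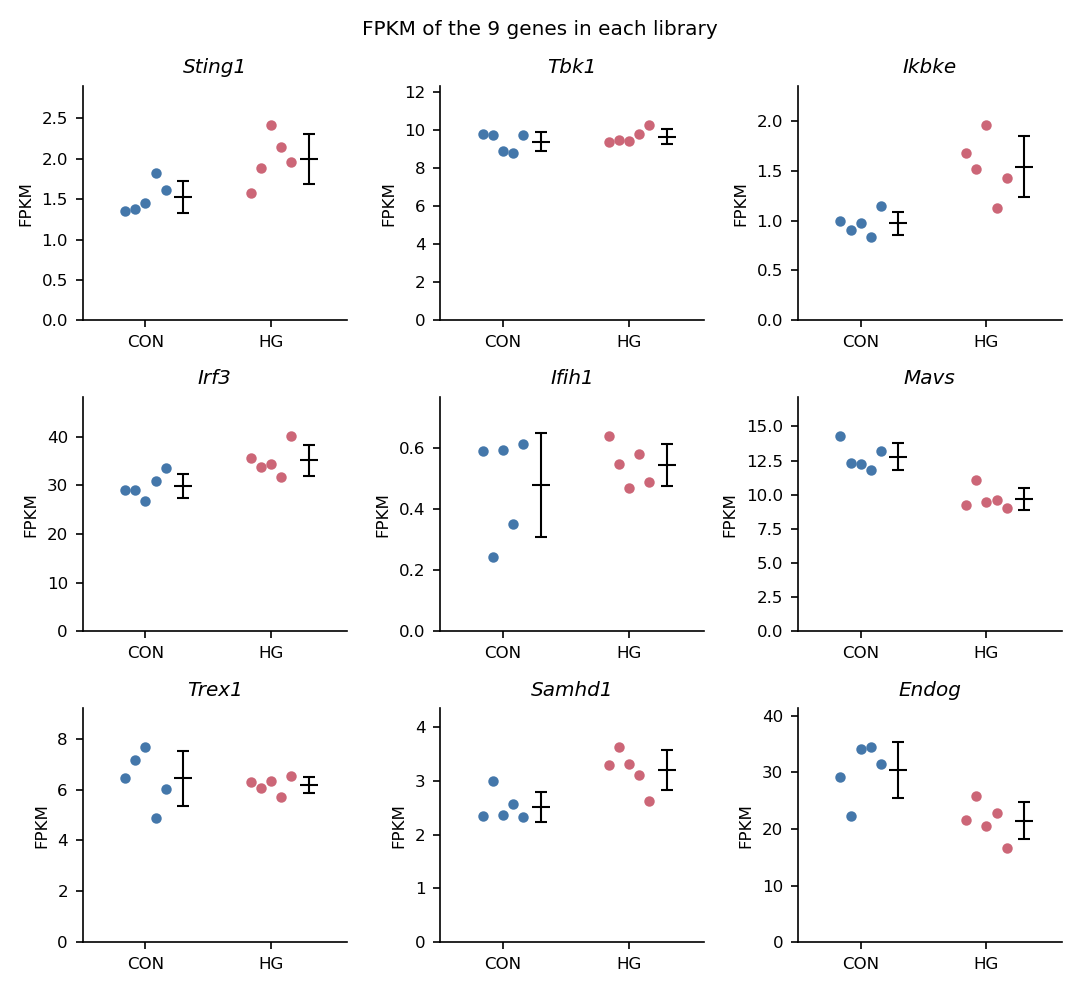
FPKM of Sting1, Tbk1, Ikbke, Irf3, Ifih1, Mavs, Trex1, Samhd1 and Endog in the 5 CON (blue) and 5 HG (red) libraries, 1 point per library in replicate order, on linear axes from 0, with the mean and SD of each group in black. Mavs is the panel in which every HG point lies below every CON point, and Tbk1 is the panel with the smallest spread relative to its level.

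Sting1, which encodes the adaptor that gives the STING axis its name, was a low transcript and was higher in HG. Its level was 1.36, 1.37, 1.45, 1.83 and 1.62 FPKM in CON replicates 1 to 5 and 1.58, 1.89, 2.42, 2.14 and 1.96 FPKM in HG replicates 1 to 5. The groups overlapped, since CON replicates 4 and 5 lay above HG replicate 1. The mean was 1.53 ± 0.198 FPKM for CON against 2.00 ± 0.31 FPKM for HG (SD, n = 5 each), a log2 fold change of 0.36 ± 0.12 (SE; limma adjusted p = 0.0309). These levels rest on 48 to 82 reads per library, and the 48 reads of CON replicate 1 have a 95% Poisson interval of 35.4 to 63.6, which covers counting error only. The call did not hold in several settings. It was lost with median-of-ratios factors (adjusted p = 0.0916), with quantile normalization (0.0889) and with voom on the recovered reads (0.0647). It was also lost without CON replicate 1, 2 or 3 (adjusted p = 0.0711, 0.0672 and 0.0625) and without HG replicate 3, 4 or 5 (0.0787, 0.0644 and 0.05).

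Tbk1, the kinase shared by the DNA and RNA routes, was the steadiest of the 9 genes. It read 9.80, 9.71, 8.89, 8.76 and 9.75 FPKM in the CON libraries and 9.34, 9.48, 9.41, 9.75 and 10.2 FPKM in the HG libraries. The ranges overlapped almost throughout, and the coefficient of variation was 5.45% in CON and 3.85% in HG. The log2 fold change was 0.04 with a 95% interval from -0.07 to 0.15 (limma adjusted p = 0.568). Its sign depended on the scaling, at -0.05 both with median-of-ratios factors (adjusted p = 0.479) and with quantile normalization (0.525).

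Ikbke, which encodes the relative of TBK1 that is inducible in immune cells, had the largest increase of the 9 genes. CON libraries held 0.994, 0.901, 0.976, 0.832 and 1.15 FPKM, and HG libraries held 1.68, 1.52, 1.96, 1.12 and 1.42 FPKM. A single HG library, replicate 4, fell inside the CON range, just below CON replicate 5. The log2 fold change was 0.60 ± 0.14 (SE; limma adjusted p = 0.00497), and the HG mean was 1.59 times the CON mean. It was 0.36 with a pseudocount of 1 (adjusted p = 0.00474) and 0.52 with median-of-ratios factors (0.0122), and leaving out any one library gave adjusted p-values of at most 0.0142. The reads behind these values numbered 58 to 130 per library. In the RefSeq gene table (GRCr8) an uncharacterised long noncoding RNA gene overlaps Ikbke, for which no values were found under its symbol.

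Irf3, the transcription factor at the end of the axis, was one of the 2 most abundant of the 9 genes and was higher in HG by a small amount. Its FPKM were 28.9, 29.0, 26.8, 30.8 and 33.5 in CON and 35.7, 33.8, 34.3, 31.6 and 40.1 in HG. CON replicate 5 lay above HG replicate 4, and HG replicate 5 was the highest of the 10 libraries. The log2 fold change was 0.23 ± 0.07 (SE; limma adjusted p = 0.017), on 969 to 1396 reads per library. The change was 0.14 with median-of-ratios factors (adjusted p = 0.105) and 0.18 with quantile normalization (0.072), neither of which passed the threshold. The study reported Irf3 mRNA as unchanged by quantitative PCR in hearts of this stage. Irf3 overlaps Bcl2l12 in the RefSeq table, and Bcl2l12 was also higher in HG, with 7.55 ± 1.31 FPKM for CON against 9.45 ± 1.08 FPKM for HG (SD, n = 5 each; limma adjusted p = 0.0374). How reads in the overlap were assigned is not given in the sources used here.

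Mavs, the mitochondrial adaptor of RNA sensing, showed the clearest separation between the groups and moved opposite to the called genes of the STING axis. Its level was 14.3, 12.3, 12.3, 11.8 and 13.2 FPKM in CON and 9.24, 11.05, 9.46, 9.60 and 8.999 FPKM in HG. Every HG library lay below every CON library. The mean fell from 12.8 ± 0.992 FPKM to 9.67 ± 0.804 FPKM (SD, n = 5 each), a log2 fold change of -0.40 ± 0.07 (SE; limma adjusted p = 0.000657), on 470 to 811 reads per library. The fold change lay between -0.49 and -0.36 in all alternatives run, with adjusted p-values between 0.000252 and 0.00457.

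The 3 genes most like Mavs over the 10 libraries, by Pearson correlation of log2(FPKM + 0.1), were Rnasek (r = 0.979), Ctsd (0.976) and Ppp1r3c (0.971). Ctsd encodes the lysosomal protease cathepsin D, and Ppp1r3c encodes a subunit that targets protein phosphatase to glycogen. Rnasek read 87.5 ± 4.48 FPKM for CON against 74.1 ± 4.93 FPKM for HG, Ctsd 98.8 ± 5.75 and 81.0 ± 4.48 FPKM, and Ppp1r3c 88.6 ± 5.21 and 58.8 ± 6.11 FPKM (SD, n = 5 each). These correlations were the highest among all genes tested and include the difference between the groups that they share with Mavs.

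Ifih1, which encodes the RNA sensor MDA5 and whose promoter window is printed above, was the lowest of the 9 genes. CON libraries held 0.59, 0.245, 0.595, 0.352 and 0.615 FPKM, and HG libraries held 0.641, 0.55, 0.471, 0.583 and 0.49 FPKM. CON replicates 2 and 4 were the lowest, and the other libraries of both groups were intermixed. The log2 fold change was 0.21 with a 95% interval from -0.25 to 0.67 (limma adjusted p = 0.46), so that a difference within this interval was not resolved by these libraries. Without CON replicate 2 it was 0.04 (adjusted p = 0.889). CON replicate 2 rests on 23 reads, with a 95% Poisson interval of 14.6 to 34.5, and the highest library on 63 reads.

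Of the nucleases, Trex1 did not pass the test. It read 6.44, 7.15, 7.67, 4.90 and 6.04 FPKM in CON and 6.31, 6.08, 6.33, 5.72 and 6.52 FPKM in HG, and all HG libraries lay within the CON range. The coefficient of variation was 16.5% in CON and 4.98% in HG. The log2 fold change was -0.04 with a 95% interval from -0.26 to 0.18 (limma adjusted p = 0.779), and its sign turned without CON replicate 2 (0.00034) or CON replicate 3 (0.03).

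Samhd1, which encodes the deoxynucleotide hydrolase, was higher in HG. The CON libraries read 2.34, 2.99, 2.36, 2.57 and 2.33 FPKM, and the HG libraries 3.29, 3.62, 3.30, 3.11 and 2.61 FPKM. HG replicate 5 lay inside the CON range, below CON replicate 2, and the other HG libraries lay above it. The log2 fold change was 0.33 ± 0.10 (SE; limma adjusted p = 0.0203). It was 0.24 with median-of-ratios factors (adjusted p = 0.0897) and 0.22 with quantile normalization (0.119), and without HG replicate 2 the adjusted p was 0.0502.

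Endog, the mitochondrial nuclease that the study manipulated in cultured cardiomyocytes, was lower in HG. Its FPKM were 29.2, 22.4, 34.2, 34.5 and 31.6 in CON and 21.6, 25.8, 20.6, 22.9 and 16.6 in HG. CON replicate 2 lay among the HG libraries, and the other CON libraries lay above all HG libraries. The mean fell from 30.4 ± 4.96 FPKM to 21.5 ± 3.33 FPKM (SD, n = 5 each), a log2 fold change of -0.49 ± 0.13 (SE; limma adjusted p = 0.00873), and adjusted p-values over the alternatives ran from 0.00113 to 0.0243. Spout1, which overlaps Endog in the RefSeq table, did not pass the test with 7.31 ± 0.567 FPKM for CON against 8.30 ± 0.984 FPKM for HG (SD, n = 5 each; limma adjusted p = 0.105).

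**Figure D2:**
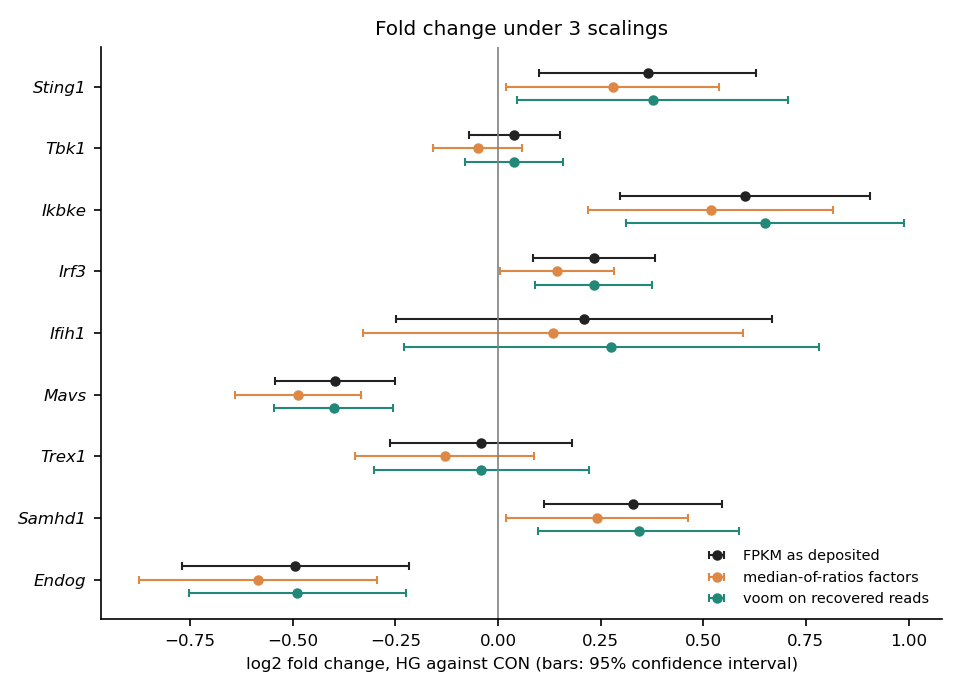
Log2 fold change of HG against CON for the 9 genes with 95% confidence intervals, from the deposited FPKM (black), after median-of-ratios factors (orange) and with voom on recovered reads (green). Median-of-ratios factors move every gene to lower values, by which Tbk1 changes sign, whereas Ikbke stays above 0 and Mavs and Endog stay below 0 in all 3 scalings.

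A ratio of 2 genes within a library does not depend on a factor applied to the whole library, as with median-of-ratios factors. Quantile normalization is not such a factor. Tbk1 was taken as the denominator after the effect of the scaling had been seen. The ratio of Mavs to Tbk1 was 1.36 ± 0.0684 for CON against 1.00 ± 0.103 for HG (SD, n = 5 each), and no HG library reached the CON range (two-sided exact permutation test, p = 0.00794, the smallest that 5 against 5 allow). For Ikbke the ratio was 0.103 ± 0.0105 for CON against 0.16 ± 0.0358 for HG (exact permutation test, p = 0.0159). For Endog it was 3.26 ± 0.67 and 2.24 ± 0.396 (exact permutation test, p = 0.0317), and for Irf3 3.18 ± 0.27 and 3.64 ± 0.26 (exact permutation test, p = 0.0397). The ratios of Sting1 and Samhd1 to Tbk1 were higher in HG by 0.35 and 0.30 on the log2 scale (exact permutation test, p = 0.0635 each). Over the 8 ratios compared, none had an adjusted p under 0.05, and a single ratio at the smallest exact p cannot go below 0.0635 after adjustment for 8 tests. Mavs, Ikbke, Endog and Irf3 thus differed from Tbk1 before this adjustment and not after it.

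The GO terms deposited with the genes show what the 9 share by annotation. At least 5 of the 9 held each of 6 terms, among them defense response to virus, which was attached to Sting1, Irf3, Ifih1, Mavs, Trex1 and Samhd1 and to 145 listed genes in all. Positive regulation of interferon-beta production was attached to 5 of the 9 genes and to 42 listed genes. A mitochondrial location was given for 6 of the 9 (Sting1, Ikbke, Irf3, Ifih1, Mavs and Endog).

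Of 106 other genes of the pathway in 7 lists, 103 were listed and 92 passed the filter. HG hearts were higher for 19 and lower for 11 of these 92 genes, so that 32.6% were called beside 40.1% of all genes tested. With median-of-ratios factors the balance turned, with 10 higher and 19 lower, and with quantile normalization 10 were higher and 14 lower. The balance over all called genes turned too, from 70.7% higher in HG to 47.1% with median-of-ratios factors. With these factors 33.2% of all genes tested were called. Shares by direction over all genes are not given here for quantile normalization. The 3 that passed the DEG threshold, Ddx58, Rsad2 and Bst2, were all lower in HG. With a pseudocount of 1 Ddx58 was at -0.84 and Rsad2 at -0.61 on the log2 scale, short of that threshold. Ddx58 also fell short without CON replicate 3 (-0.98) or HG replicate 2 (-0.90) or 4 (-0.89), and Rsad2 without CON replicate 1 (-0.97) or HG replicate 5 (-0.93), while Bst2 stayed past it in each of these fits.

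Among the other nucleic acid receptors, 6 of 12 tested genes rose and 1 fell, where 28.4% of all genes rose and 11.8% fell. With median-of-ratios factors 4 were higher and 1 was lower, and quantile normalization gave the same counts. Cgas, the DNA sensor upstream of STING, did not pass the test, with 0.645 ± 0.0602 FPKM for CON against 0.733 ± 0.126 FPKM for HG (SD, n = 5 each; log2 fold change 0.15, limma adjusted p = 0.419). Ddx58, which encodes the RNA sensor RIG-I and like Ifih1 acts through MAVS, was the receptor that fell. It read 6.46, 6.0, 7.12, 5.79 and 5.99 FPKM in CON and 3.91, 2.10, 3.43, 2.05 and 4.31 FPKM in HG, without overlap (log2 fold change -1.03 ± 0.19 (SE), limma adjusted p = 0.00108). Ddx58 and Mavs were thus both lower in HG. The RNA helicases Dhx9 (log2 fold change 0.36, adjusted p = 0.000669) and Ddx41 (0.25, 0.00192) and Pqbp1 (0.23, 0.00651), which encodes a cofactor of cGAS, rose with limma, and Pqbp1 lost its call with median-of-ratios factors (adjusted p = 0.0697). Zbp1, Aim2, Tlr9, Ddx60, Oas1a and Oas2 fell below the filter.

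Among the adaptors, kinases and transcription factors around TBK1 and IRF3, 3 of 19 rose and 1 fell (background 28.4% and 11.8%). With median-of-ratios factors 1 was higher and 3 were lower, and with quantile normalization 1 was higher and 2 were lower. Tbkbp1, which encodes a protein that binds TBK1, rose from 8.82 ± 0.786 FPKM to 11.3 ± 0.747 FPKM (SD, n = 5 each; log2 fold change 0.35, limma adjusted p = 0.00182), with all HG libraries above the CON libraries. The NF-kappaB kinase genes Ikbkb (log2 fold change 0.27, limma adjusted p = 0.0138) and Chuk (0.17, 0.0219) were higher, but not with median-of-ratios factors (adjusted p = 0.0682 and 0.266). Chuk also lost its call without CON replicate 3 or 4 or HG replicate 1 (adjusted p of at most 0.0543). Nlrc3, known as a negative regulator of STING signalling, read 0.369 ± 0.0657 FPKM for CON against 0.226 ± 0.064 FPKM for HG (SD, n = 5 each; limma adjusted p = 0.0376), and the call was lost without CON replicate 2, 4 or 5 or HG replicate 1, 3 or 4 (adjusted p of at most 0.0838).

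Of the genes for retention, traffic and turnover of STING, 3 of 15 rose and 2 fell (background 28.4% and 11.8%). With median-of-ratios factors 3 rose and 5 fell. Insig1 (log2 fold change 0.48, limma adjusted p = 0.00117), Trim56 (0.36, 0.00132) and Trim32 (0.33, 0.00528) were higher in HG. Trim56 and Trim32 encode ubiquitin ligases for which STING is a known substrate. Zdhhc7, one of the palmitoyltransferases that modify STING, was lower, with 28.3 ± 1.77 FPKM for CON against 23.5 ± 1.91 FPKM for HG (SD, n = 5 each; log2 fold change -0.27, limma adjusted p = 0.00409).

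Of the other nucleases and clearance genes, 3 of 16 rose and none fell (background 28.4% and 11.8%). With median-of-ratios factors 1 was higher and 2 were lower. Rnaseh2b (log2 fold change 0.31, limma adjusted p = 0.00641) and Rnaseh1 (0.28, 0.015), which remove RNA from hybrids with DNA, and the lysosomal nuclease gene Pld3 (0.24, 0.0192) made up the 3. Rnaseh1 and Pld3 lost the call with median-of-ratios factors (adjusted p = 0.0902 and 0.152).

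Genes for the upkeep and release of mitochondrial DNA held 3 of 13 higher and 4 lower on the deposited scale (background 28.4% and 11.8%). With median-of-ratios factors 0 were higher and 4 lower, and with quantile normalization 0 were higher and 2 lower. The channel genes of the outer membrane fell by little, Vdac1 from 333 ± 10.8 FPKM to 284 ± 20.8 FPKM (SD, n = 5 each; log2 fold change -0.23, limma adjusted p = 0.00225) and Vdac2 from 271 ± 14.1 FPKM to 241 ± 14.3 FPKM (-0.17, adjusted p = 0.0141). Top1mt (log2 fold change 0.33, limma adjusted p = 0.0124) and Ssbp1 (0.24, 0.0133), which act on mitochondrial DNA itself, were higher, and neither passed with median-of-ratios factors (adjusted p = 0.0555 and 0.0938). Vdac2 lost its call with quantile normalization (adjusted p = 0.0543).

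Downstream of IRF3, the interferon receptors and JAK-STAT genes held 0 calls among 6 tested with limma, where 40.1% of all genes were called. They also held 0 at an unadjusted p under 0.05 and 0 calls with voom. With median-of-ratios factors 1 of the 6, Stat2, named after its values were seen, was lower (adjusted p = 0.0201). Of the interferon target genes, 1 of 11 tested rose and 3 fell (background 28.4% and 11.8%). Rsad2, which encodes the antiviral enzyme viperin and is one of the targets the study followed, read 2.11, 1.61, 1.74, 1.29 and 1.72 FPKM in CON and 0.784, 0.886, 0.864, 0.805 and 0.511 FPKM in HG (log2 fold change -1.05 ± 0.16 (SE), limma adjusted p = 0.000279). Bst2, which encodes the virus-tethering protein tetherin and holds the 2 overlapping motifs printed above, read 12.0, 8.12, 11.7, 9.94 and 11.8 FPKM in CON and 4.34, 5.67, 3.33, 6.61 and 2.64 FPKM in HG (-1.29 ± 0.21 (SE), adjusted p = 0.000575). In both genes every HG library lay below every CON library.

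The other interferon targets that the study followed were also low transcripts in these hearts. Ifit1 was lower in HG, at 1.69 ± 0.728 and 0.876 ± 0.161 FPKM (SD, n = 5 each; limma adjusted p = 0.0221), and lost the call without CON replicate 1 (0.0545) or HG replicate 2 (0.0527). Ifi44 was higher, at 0.657 ± 0.14 and 1.06 ± 0.292 FPKM (SD, n = 5 each; limma adjusted p = 0.0242), and lost the call without CON replicate 1 or 4 or HG replicate 2 or 5 (adjusted p of at most 0.0600). Usp18 (limma adjusted p = 0.123), Isg15 (0.476) and Cxcl10 (0.199) did not pass the test with means between 0.0621 and 0.452 FPKM, and Ifit3 fell below the filter. Usp18, Isg15 and Cxcl10 rest on at most 11, 7 and 7 reads in any library, so that the test could resolve little. Ifnb1 and Iigp1 were not analysed here. By quantitative PCR in hearts of the same stage, the study reported several inflammation-related transcripts as elevated in HG. Its discussion names Rsad2, Ifit1 and Ifi44 among the overexpressed genes. In the libraries here Ifi44 was also higher, whereas Rsad2 and Ifit1 were lower, and the reason for this difference was not tested.

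**Figure D3:**
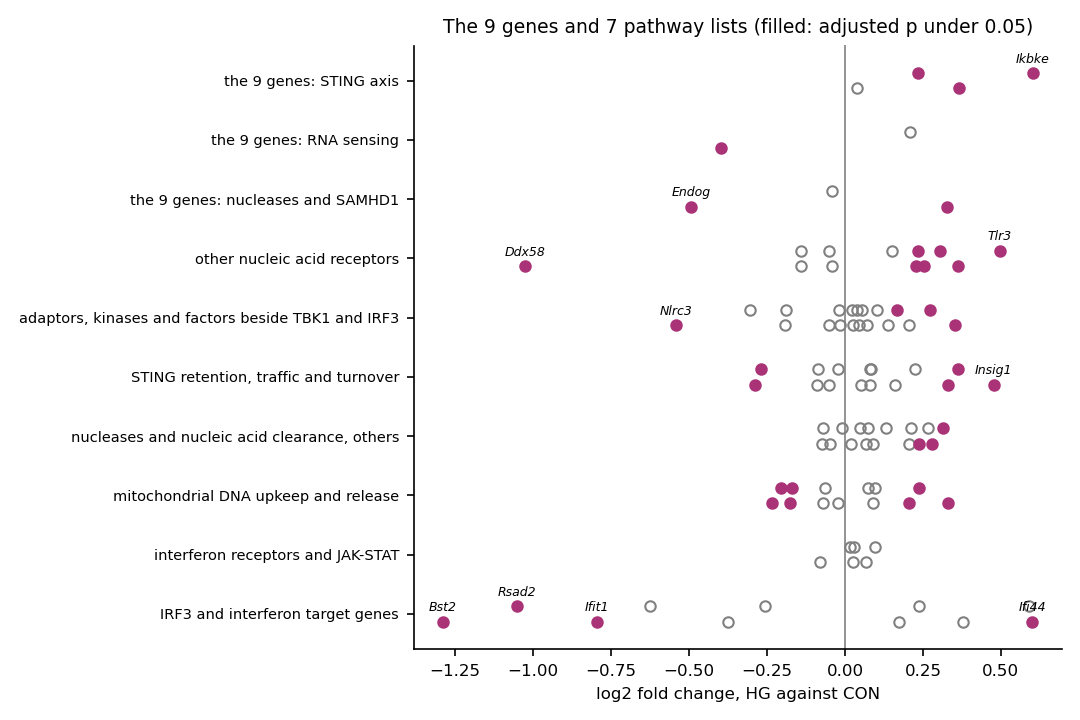
Log2 fold change of HG against CON for the 9 genes in 3 groups and for the tested genes of 7 pathway lists, 1 point per gene, filled where the limma adjusted p is under 0.05; called genes beyond 0.45 in either direction are named. Ddx58, Rsad2 and Bst2 are the points below -1, and the called genes of the STING axis lie to the right of 0.

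Hearts hold several cell types, and in bulk tissue fewer cells of a type and less RNA per cell cannot be told apart. The summed level of 8 cardiomyocyte markers was 26045 to 27191 FPKM in CON and 20586 to 23597 FPKM in HG, without overlap. Of the 8, 7 were lower in HG with limma (background 11.8%), 8 with median-of-ratios factors and 5 with quantile normalization. Quantile normalization gives equal ranks equal values. Actc1 and Myl2 had equal group means under it, so that no call was possible for them. The 10 macrophage markers, from cells in which Sting1 and Ikbke are known to be expressed, summed to 46.3 to 60.4 FPKM in CON and 53.2 to 69.0 FPKM in HG (two-sided exact permutation test, p = 0.206). The largest parts of this sum were C1qa, C1qb and C1qc, so that it need not show shifts of the lower markers. Of the 10, Cd68 (log2 fold change 0.59), Adgre1 (1.00) and C1qa (0.25) were higher. Lyz2 (-0.79) and Cd163 (-1.77) were lower, and 5 did not pass. C1qa lost its call with median-of-ratios factors and with quantile normalization. The 7 endothelial markers summed to 248 to 269 FPKM in CON and 248 to 276 FPKM in HG (exact permutation test, p = 0.619), with 1 of 7 higher. The summed smooth muscle and pericyte markers lay higher in HG without overlap (684 to 799 against 846 to 1075 FPKM), but most of this sum was Acta2, and the pericyte marker Rgs5 was lower in HG without overlap (89.7 ± 7.79 against 72.2 ± 6.54 FPKM, SD, n = 5 each; limma adjusted p = 0.00456). Summed red cell precursor markers lay lower without overlap (60.0 to 110 against 40.6 to 58.2 FPKM). Fibroblast markers summed to 1534 to 1782 FPKM in CON and 1415 to 1616 FPKM in HG (exact permutation test, p = 0.0238). Of these 7, 2 were higher and 3 lower. Neutrophil markers summed to 2.13 to 4.35 FPKM in CON and 0.316 to 3.31 FPKM in HG (exact permutation test, p = 0.0476). Adjusted over 11 values, these p-values were 0.0524 and 0.0748. Epicardial sums overlapped (exact permutation test, p = 0.357). The 5 lymphocyte markers summed to at most 1.28 FPKM in any library, with Cd3e, Cd3d and Ms4a1 below the filter, and Cd3e and Ms4a1 at 0 in all HG libraries. The part of these shifts in the results for the 9 genes was not tested.

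CON replicate 3 stood apart by its liver markers, which summed to 73.0 FPKM there and to 3.12 to 7.22 FPKM in the other CON libraries. The HG libraries held 0.852 to 2.40 FPKM, below every CON library (two-sided exact permutation test, p = 0.00794), and all 4 liver markers were lower in HG with limma. Without CON replicate 3, Afp (adjusted p = 0.00926) and Ttr (0.00131) were still called, and Alb (0.0753) and Apoa1 (0.0948) were not. In the same fit 5 of the 9 genes were called, Sting1 being the call lost. Hemoglobin genes held 2.27% to 4.21% of the FPKM in CON and 1.86% to 2.56% in HG, and with these genes left out 6 of the 9 genes were called. Beside these counts, 40.1% of all genes tested were called with every library and the hemoglobin genes kept.

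**Figure D4:**
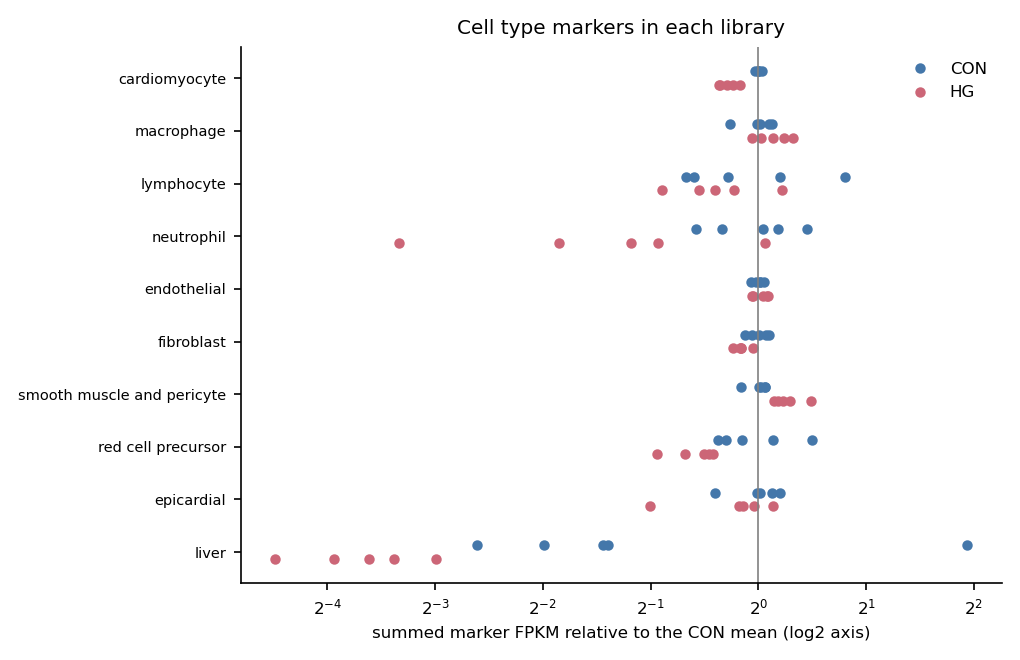
Summed FPKM of each cell type's markers in the CON (blue) and HG (red) libraries relative to the CON mean, on a log2 axis, 1 point per library. The sums of cardiomyocyte and red cell precursor markers are lower in every HG library than in any CON library. That of smooth muscle and pericyte markers, mostly Acta2, is higher in every HG library than in any CON library. The macrophage, endothelial, fibroblast and neutrophil sums overlap, and CON replicate 3 is the isolated liver point on the right.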

How the data were processed

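Stranded mRNA libraries of 10 fetal heart samples were sequenced, and the authors deposited FPKM, read numbers divided by gene length and library size, for 18025 genes. The submitters' processing notes name fastp, HISAT2, HTSeq, R 3.2.0 and the build mRatBN7.2. The methods of the study mention pooled RNA, whereas the deposited values differ between libraries: pairs of the same group differed by 5.94 to 11.9 times the counting noise (chi-square over its degrees of freedom). Columns of the authors' own comparisons were not used, and 0 sample columns were left out.

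FPKM steps were whole reads in 100% of genes (tolerance 0.02 reads), which gave 17639895 to 18240006 reads per CON and 16672876 to 19109844 per HG library. Python 3.11.15 was used with pandas 2.3.3, numpy 2.4.6, scipy 1.17.1 and matplotlib 3.10.9. Genes averaging 0.1 FPKM or more (14542) entered limma 3.58.1 as log2(FPKM + 0.1) (trend, no covariate) in R 4.3.3 and Benjamini-Hochberg adjustment over all of them. The DEG threshold was an adjusted p below 0.05 with an absolute log2 fold change over 1. Two-sided exact permutation tests served for single values per library. The 9 genes and all lists were chosen with earlier results of these data known. A further 3 genes of the lists are not reported here and were left out of the lists' counts and sums. Named beside the 9 were, per pathway list, up to 4 called genes with the smallest adjusted p, Cgas, interferon targets named by the study, the 3 genes most like the member with the smallest adjusted p, and overlapping genes. Macrophage and lymphocyte markers and genes below the filter were named to account for their lists. All 9 genes were matched by NCBI Gene identifier in the RefSeq table, of another build (GRCr8) than the files.

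Alternatives concerned scaling (median-of-ratios factors, or quantile normalization, or rescaling without hemoglobin genes), the pseudocount (1 or 0.01), the filter (none, or 1 FPKM on average), the model (no trend, a replicate block, voom on recovered reads) and leaving out each library. Ratios to Tbk1 were added after seeing the data.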

Additional observations from a re-analysis of the deposited data

Results flagged for a closer look

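None of the 9 genes had a library set apart from its group by Dixon's test, in 18 groups of 5 libraries. Over 96 groups examined, which include named pathway genes and marker sums, 5 held such a library, and chance flags about 1 in 20 groups. The ratio of the gap to the range was above 0.71 in each. CON replicate 1 was low in Rnaseh2b, at 4.83 FPKM below 5.73 to 6.05 FPKM (ratio 0.741). HG replicate 4 was high in Vdac1, at 320.2 FPKM above 269 to 279 FPKM (ratio 0.801). Rsad2 was low in HG replicate 5, at 0.511 FPKM below 0.784 to 0.886 FPKM (ratio 0.729). The summed smooth muscle and pericyte markers were low in CON replicate 5, at 684 FPKM below 768 to 799 FPKM (ratio 0.733). The summed liver markers were high in CON replicate 3, at 73.0 FPKM above 3.12 to 7.22 FPKM (ratio 0.941).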

How the results depend on the processing

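The scaling of the libraries was the choice that moved the count of called genes most. Of the 9 genes, 6 were called with the deposited FPKM and 3 each with median-of-ratios factors and quantile normalization. With these in turn, the log2 fold change of Sting1 was 0.28 and 0.28, of Irf3 0.14 and 0.18 and of Samhd1 0.24 and 0.22, none of them called, and Tbk1 was at -0.050 and -0.046, turned in sign and not called. With voom Sting1 was at 0.38 and not called. With 1 library left out, 5 or 6 of the 9 were called. Sting1 then ranged from 0.30 to 0.44 (called in 4 of 10 fits), Samhd1 from 0.28 to 0.40 (9 of 10) and Trex1 from -0.13 to 0.025 (positive without CON replicate 2, at 0.00034, or CON replicate 3). Mavs, Ikbke and Endog kept their direction and call in every alternative run. None of the 9 reached the DEG threshold in any. Ifih1 was not tested with the filter at 1 FPKM. The share of all genes called ran from 31.5% (no filter) to 46.6% (filter at 1 FPKM).

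Replicate numbers did not pair the libraries: deviations of same-numbered CON and HG libraries correlated between -0.126 and 0.108, and 1 of 10 libraries correlated best with their own number. With the replicate number as a block, 6 of the 9 genes and 35.0% of all genes were called. Over the 27 tested pathway genes named, 503 of 533 values in alternatives kept direction and call and 30 lost the call. At the depth here, genes under about 1 FPKM, such as Ifih1, rest on few reads.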
